A study of Homo sapiens with 6 samples.

Results

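G1 cyclins and inhibitors of cyclin-dependent kinases (CDKs) were followed after exposure to YW3-56 in MDA-MB-231, an established human breast cancer line of the triple-negative kind. The 10 genes were the D-type cyclins CCND1, CCND2 and CCND3, the E-type cyclins CCNE1 and CCNE2, cyclin G2 (CCNG2), the Cip/Kip inhibitors CDKN1A, CDKN1B and CDKN1C, and the INK4 inhibitor CDKN2B. They were taken by symbol from 18417 genes with values on Affymetrix arrays, and each was represented by 1 probe set that carried no other gene's symbol. RNA came from 6 cultures. In 3 of them cells at about 70% confluence received YW3-56 at 10 µM for 8 h, and the other 3 received the vehicle DMSO, for which no separate time is stated. All are cultures of 1 established line in serum-containing medium, described in the labels as biological replicates. If they were not separate cultures, the p-values measure only the spread between arrays.

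YW3-56 is known as an inhibitor of peptidylarginine deiminases, enzymes that turn arginine in proteins, histones included, into citrulline. One of them, PADI4, is known as a co-repressor of genes regulated by the tumour suppressor p53, of which CDKN1A is the classical example. MDA-MB-231 cells are known to carry mutant p53 and to lack the CDKN2A locus, which lies beside CDKN2B. The comparison asks how transcripts that govern entry into the cell cycle differed after the compound.

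In a dividing cell, growth signals raise D-type cyclins, which bind CDK4 and CDK6 and start the phosphorylation of the retinoblastoma protein RB. E2F transcription factors are then released and E-type cyclins activate CDK2, which completes the passage into S phase. INK4 proteins bind CDK4 and CDK6 themselves, whereas Cip/Kip proteins bind cyclin-CDK complexes, block CDK2 and help D-type cyclins to assemble with their kinases. Cyclin G2 stands apart from this scheme. It is known as an unconventional cyclin whose transcript is abundant in resting or arrested cells and is raised by FOXO factors.

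RefSeq start-site windows of build GRCh38.p14 were available for 6 of the 10 genes (8 windows, since CCND3 has 3 starts). They were not used for CCND1, CCND2, CCNE2 and CDKN1C. The 250 bases before the start are shown 5′ to 3′ for CCNG2 and CDKN1A, both higher after YW3-56, and for CDKN1B, a relative of CDKN1A that was not called. Capitals mark matches to the motif strings described after the sequences. The windows are chr4:77156957-77157206 for CCNG2, chr6:36678464-36678713 for CDKN1A and chr12:12717118-12717367 for CDKN1B, all on the plus strand.
CCNG2: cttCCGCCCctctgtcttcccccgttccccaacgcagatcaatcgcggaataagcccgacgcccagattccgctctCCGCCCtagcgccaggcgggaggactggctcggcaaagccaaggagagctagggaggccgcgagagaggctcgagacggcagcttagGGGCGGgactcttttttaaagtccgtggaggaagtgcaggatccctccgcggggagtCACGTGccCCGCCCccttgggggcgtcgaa
CDKN1A: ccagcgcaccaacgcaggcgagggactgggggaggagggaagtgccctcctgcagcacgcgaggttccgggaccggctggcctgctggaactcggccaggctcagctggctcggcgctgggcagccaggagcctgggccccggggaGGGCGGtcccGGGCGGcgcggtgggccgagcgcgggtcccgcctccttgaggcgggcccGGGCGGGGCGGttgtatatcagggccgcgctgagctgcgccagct
CDKN1B: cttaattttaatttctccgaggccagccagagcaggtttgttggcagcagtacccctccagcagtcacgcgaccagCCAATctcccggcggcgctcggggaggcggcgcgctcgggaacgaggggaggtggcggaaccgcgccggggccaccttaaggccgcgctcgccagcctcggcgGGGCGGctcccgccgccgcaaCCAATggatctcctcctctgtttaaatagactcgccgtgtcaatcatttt

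Each string was searched on both strands in these windows and in all 35116 RefSeq windows of the same length. The GC box GGGCGG, known to bind SP1-type factors, was found in 7 of the 8 windows of the group, against 42.6% of all windows. CDKN1A held 4 GC boxes between bases -104 and -35 before its start, 2 of which share a base, and CDKN1B held 1. CCNG2 held 4 GC boxes and 1 E-box, CACGTG, at bases -30 to -25. The E-box, known to bind MYC-type and TFEB-type factors, was present in 6.34% of all windows and in no other window of the group. The CCAAT box, CCAAT, matched 3 of the 8 windows (32.0% of all), with 2 matches in CDKN1B. No window of the group matched the E2F string TTTNGCGC (1.51% of all), the FOXO string GTAAACA (2.98%), the composite ATF4-CEBP string TGATGNAA (3.14%), the AP-1 string TGANTCA (6.57%), the cyclic AMP string TGACGTCA (1.65%) or the TATA box TATAAA (10.7%). The windows were rich in G and C, at 65.6% in CCNG2, 76.4% in CDKN1A and 64.4% in CDKN1B, beside a median of 58.0% over all windows. These matches describe the letters in the windows only.

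After YW3-56, CCNG2, CCND2 and CDKN1A rose, CCND1 fell, and the other 6 genes did not pass the test. A gene was called at an adjusted p under 0.05 in limma, a linear model that shares variance information between genes. By this rule 4 of the 10 genes were called, beside 21.4% of all genes tested. The 3 rises stand beside 9.84% of all genes called higher, and the 1 fall beside 11.5% called lower. The median log2 fold change was 0.05 over the 10 genes and -0.05 over all genes. In 4 of the 10 genes every treated array lay above every DMSO array and in 1 every treated array lay below, beside 15.5% and 21.4% of all genes, or 36.9% together.

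**Figure D1:**
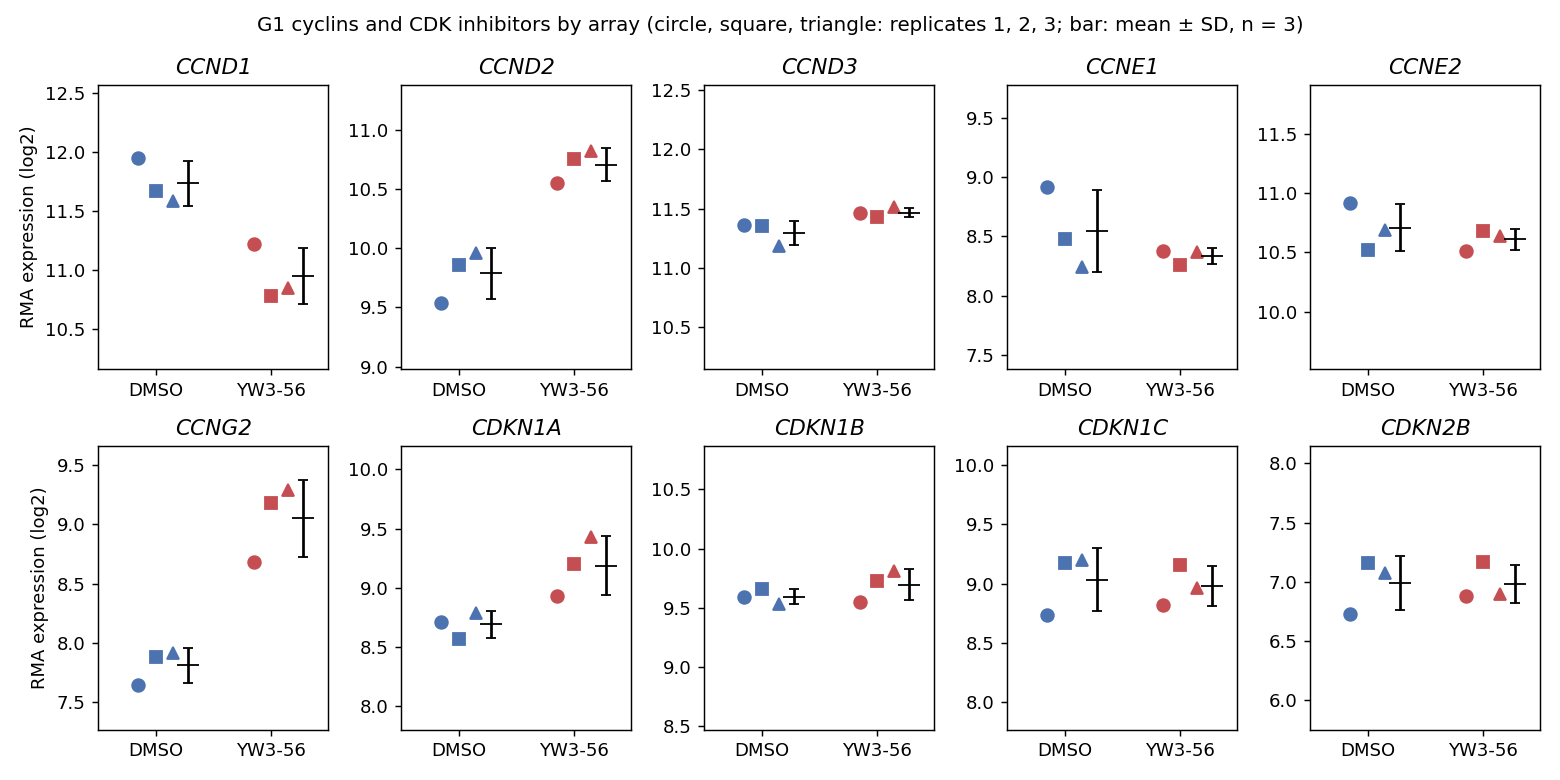
Deposited RMA expression (vertical axis, log2) of the 10 genes in DMSO (blue) and YW3-56 (red), with a symbol for each replicate number and a black bar for the mean ± SD of 3 arrays; every panel spans the same number of log2 units but starts at its own level. CCNG2, CCND2 and CCND1 show groups that lie clearly apart, CDKN1A and CCND3 groups that just separate, and the other 5 genes groups that overlap.

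The D-type cyclins moved in different directions. CCND1 encodes cyclin D1, the D-type cyclin most often amplified in breast cancer. Its values were 11.95, 11.67 and 11.58 in the DMSO arrays and 11.22, 10.78 and 10.85 in the treated arrays (log2 expression). All treated values lay below all DMSO values, with YW3-56 replicate 1 the closest to them. CCND1 was 1.72-fold lower (log2 fold change -0.78 ± 0.14 standard error (SE), 95% interval -1.10 to -0.46, limma adjusted p = 0.00556, with 3 arrays in each group here and throughout). A per-gene linear model without shared variance gave the same change with an adjusted p of 0.0632, so that the call was lost there.

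CCND2 encodes cyclin D2, which pairs with the same kinases. The DMSO arrays read 9.54, 9.86 and 9.96 and the treated arrays 10.55, 10.75 and 10.82. The groups did not overlap, and the lowest treated array exceeded the highest DMSO array by 0.59 on the log2 scale. CCND2 was 1.89-fold higher (0.92 ± 0.12 SE, limma adjusted p = 0.00167, 95% interval 0.63 to 1.21). It was called under all 17 other settings that were run, with changes from 0.80 to 1.01. Not all of them could differ much from the main fit, since averaging probe sets leaves a gene with 1 probe set unchanged.

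CCND3, the gene of cyclin D3, stayed close to its DMSO level. Its DMSO values of 11.36, 11.35 and 11.18 all lay under the treated values of 11.46, 11.43 and 11.51, by a gap of only 0.07. The difference was 0.17 ± 0.08 SE with a 95% interval from -0.01 to 0.35, and it was not called (limma adjusted p = 0.179). The upper bound lies under the rise of CCND2, and the interval does not show that CCND3 was unaffected.

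Whether the 3 genes differed in their response was tested on the difference between their log2 values within each array. From DMSO to YW3-56, CCND1 minus CCND2 shifted by -1.70, CCND1 minus CCND3 by -0.95 and CCND2 minus CCND3 by 0.75. Treated and DMSO arrays were separate in each of these 3 pairs. The exact two-sided permutation test gave p = 0.1 for each, the smallest p that this test can give with 3 arrays against 3, and 0.14 after Benjamini-Hochberg adjustment over 7 pairs of related genes. This test cannot pass the threshold with so few arrays, so these shifts are given as sizes.

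The E-type cyclins were not called. CCNE1, cyclin E1, read 8.92, 8.48 and 8.24 in DMSO and 8.38, 8.26 and 8.37 in YW3-56. Its DMSO arrays were spread widely (SD 0.35) and the treated arrays narrowly (SD 0.06), with the treated values inside the DMSO range. The difference was -0.21 ± 0.16 SE (limma adjusted p = 0.433, 95% interval -0.57 to 0.15). DMSO replicate 1 carried most of it, since without that array the difference was -0.02.

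CCNE2, cyclin E2, read 10.92, 10.52 and 10.69 in DMSO and 10.51, 10.68 and 10.64 in YW3-56, with overlapping groups. The difference was -0.10 ± 0.11 SE (limma adjusted p = 0.628, 95% interval -0.35 to 0.15). Leaving out DMSO replicate 1, again the highest array, moved it to 0.01. Within arrays, CCNE1 minus CCNE2 shifted by -0.11 with overlapping groups (exact permutation p = 0.6, two-sided).

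Cyclin G2 showed the largest change of the group. CCNG2 read 7.64, 7.88 and 7.91 in DMSO and 8.68, 9.18 and 9.29 in YW3-56. The lowest treated array stood 0.77 above the highest DMSO array. CCNG2 was 2.37-fold higher (1.24 ± 0.16 SE, limma adjusted p = 0.00121, 95% interval 0.88 to 1.60), which ranked 132 among all 18417 genes by size of change. It was the only one of the 10 to pass 2-fold, a size that 1.42% of all genes reached with a call. The call was kept under all 17 other settings, with changes between 1.12 and 1.43. Its relative CCNG1, cyclin G1, a known p53 target, changed by 0.24 ± 0.08 SE and was not called (limma adjusted p = 0.0826), although it was called with the replicate number as a block (adjusted p = 0.034), after a second quantile normalization, with a trended prior and with array weights.

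**Figure D2:**
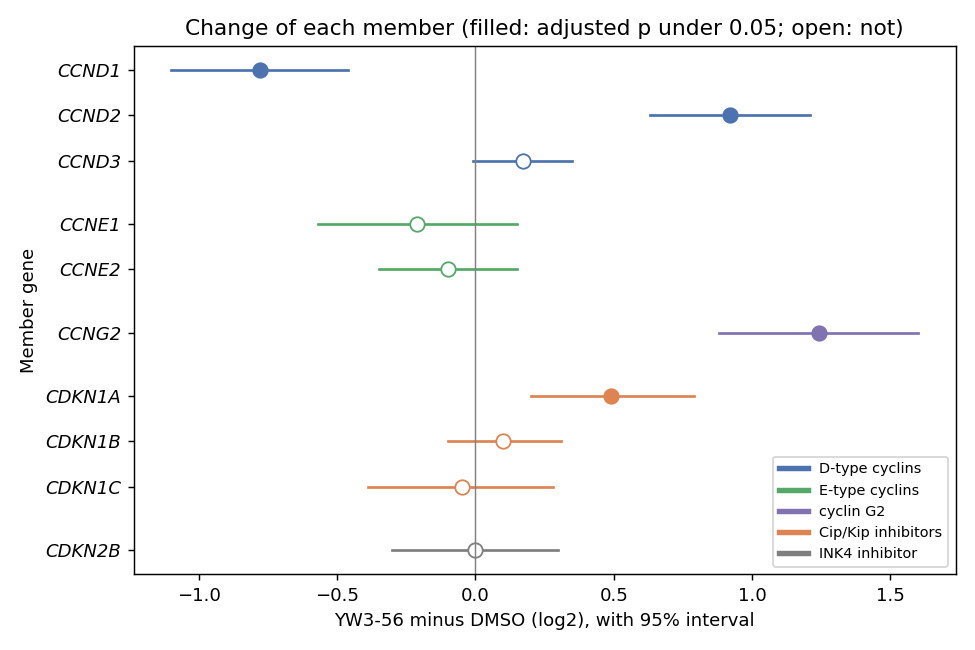
Difference between YW3-56 and DMSO (horizontal axis, log2) for each gene (vertical axis, grouped and coloured by role), with the limma estimate as a point and its 95% interval as a line; n = 3 arrays per group. Filled points mark CCND1, CCND2, CCNG2 and CDKN1A, the genes called, and the intervals of the other 6 include 0.

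Among the Cip/Kip inhibitors, CDKN1A rose. It encodes p21, which inhibits CDK2 complexes and is induced by p53 and by p53-independent signals. The DMSO arrays read 8.71, 8.57 and 8.79 and the treated arrays 8.93, 9.20 and 9.43. The groups were separated by 0.14, with YW3-56 replicate 1 nearest to DMSO. CDKN1A was 1.41-fold higher (0.49 ± 0.13 SE, limma adjusted p = 0.0275, 95% interval 0.20 to 0.79). This was the least stable of the 4 calls. It was lost without DMSO replicate 2 (0.43, adjusted p = 0.106), without YW3-56 replicate 2 (0.49, 0.0846) and without YW3-56 replicate 3 (0.37, 0.0944). It was also lost in the per-gene model without shared variance (adjusted p = 0.134) and when all probe sets were tested (0.0632). The direction was upward under all 17 other settings, from 0.37 to 0.64.

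CDKN1B encodes p27, the inhibitor that holds cells in quiescence and is controlled to a large extent by degradation of the protein. Its values were 9.59, 9.66 and 9.53 in DMSO and 9.55, 9.73 and 9.81 in YW3-56. YW3-56 replicate 1 lay within the DMSO range and the other treated arrays above it. The difference was 0.10 ± 0.09 SE, not called (limma adjusted p = 0.506, 95% interval -0.10 to 0.31).

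CDKN1C encodes p57, an imprinted inhibitor of the same family. It read 8.73, 9.17 and 9.20 in DMSO and 8.82, 9.16 and 8.96 in YW3-56, so that the treated values fell inside the DMSO range. The difference was -0.05 ± 0.14 SE (limma adjusted p = 0.854, 95% interval -0.39 to 0.28). DMSO replicate 1 was the lowest array of all 6.

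Within arrays, CDKN1A minus CDKN1B shifted by 0.39 and CDKN1A minus CDKN1C by 0.55, and both separated the groups. Each had an exact permutation p of 0.1 (two-sided, 0.14 after adjustment), the smallest value this test can give. CDKN1B minus CDKN1C shifted by 0.16 with overlapping groups (exact permutation p = 0.5).

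CDKN2B encodes p15, an INK4 inhibitor known as a target of TGF-beta signalling. Its values were 6.73, 7.16 and 7.07 in DMSO and 6.88, 7.17 and 6.90 in YW3-56, and the groups overlapped throughout. The difference was 0.00 ± 0.13 SE (limma adjusted p = 0.988, 95% interval -0.30 to 0.30). The probe set was dim, at the 26.9 percentile of gene means over the 6 arrays, near the 26.1 percentile of CDKN2A, its neighbour on chromosome 9 that this line is known to lack. These values cannot show that a CDKN2B transcript was present, and an unchanged dim signal says nothing about its regulation. CDKN2A, the gene of p16, changed by -0.24 ± 0.13 SE and was not called (limma adjusted p = 0.256).

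YW3-56 replicate 1 was the treated array nearest to the DMSO mean in 4 of the 4 called genes. DMSO replicate 1 was in turn the DMSO array farthest from the treated arrays in CCND1, CCND2 and CCNG2. Subtracting arrays of the same replicate number gave CCND1 differences of -0.72, -0.89 and -0.73, and CCND2 differences of 1.02, 0.89 and 0.86. For CCNG2 they were 1.05, 1.30 and 1.38, and for CDKN1A 0.21, 0.64 and 0.63. The smaller value of CDKN1A thus came from the arrays numbered 1. With both of these arrays left out, a setting added after the data were seen, all 4 genes were called, at -0.81 for CCND1, 0.87 for CCND2, 1.34 for CCNG2 and 0.63 for CDKN1A.

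**Figure D3:**
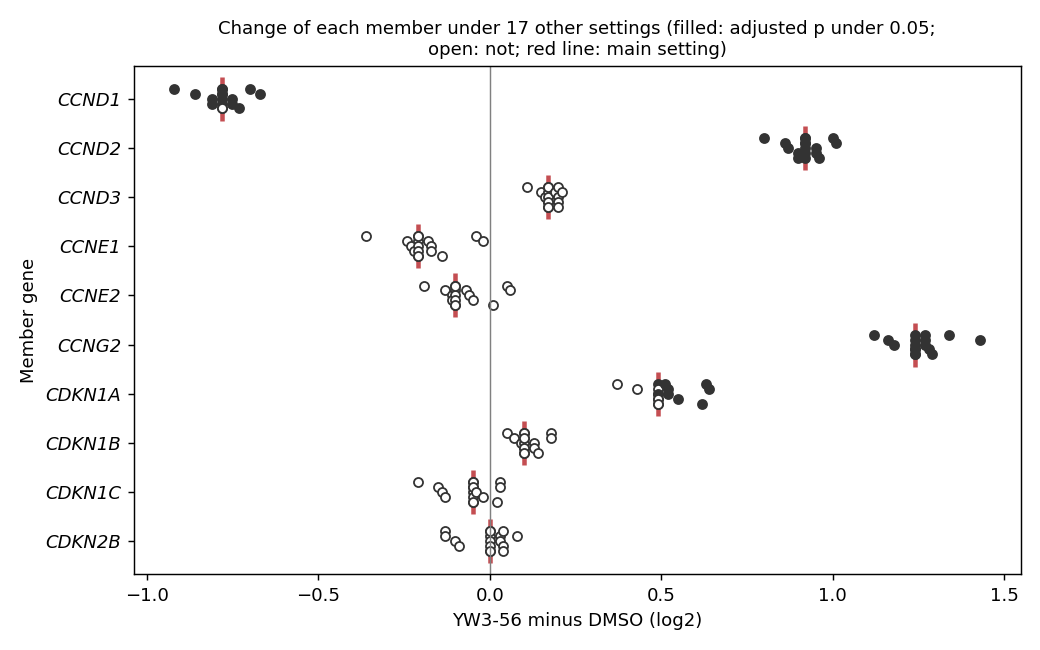
Difference between YW3-56 and DMSO (horizontal axis, log2) for each gene (vertical axis) under 17 other settings, including the removal of single arrays; the red line is the main value, filled points have an adjusted p under 0.05 and open points do not. CCND2 and CCNG2 are filled throughout, CCND1 in 16 settings and CDKN1A in 12, and none of the other 6 genes has a filled point.

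Genes whose values followed those of the members most closely were found over the 6 arrays after each gene was centred on its mean. For CCNG2 they were RSPO3, SLFN5 and NCOA7, with root mean square differences of 0.11, 0.13 and 0.14 on the log2 scale. For CCND1 they were TNFRSF10A (0.05), RRP1B (0.05) and CERK (0.06). With 2 groups of arrays, genes of a like group difference score as alike.

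Other genes of the pathway were counted list by list, against 9.84% of all genes called higher, 11.5% called lower and a median of -0.05 over all genes. A list of CDKs of the G1 cyclins and their activators, which also held CDK5 and the co-chaperone CDC37, had 9 measured genes. Of these, 0 rose and 1 fell (11.1% called beside 21.4% of all genes), with a median of -0.06. CDK4 read 12.60, 12.62 and 12.46 in DMSO and 12.30, 12.29 and 12.31 in YW3-56, a fall of small size (-0.26 ± 0.08 SE, limma adjusted p = 0.0423). That call was lost after a second quantile normalization, after centring of the arrays, in the per-gene model (adjusted p = 0.0507), and on removal of any 1 array other than DMSO replicate 3. CDK6 (-0.14 ± 0.08) and CDK2 (-0.06 ± 0.08) were not called.

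Of 5 genes listed as other CDK inhibitors, 1 rose and 0 fell, or 20% called, close to the 21.4% of all genes. The rise was in CDK2AP2, which is no INK4 or Cip/Kip gene. CDKN2A, CDKN2D (-0.28), CDKN3 (-0.14) and CDK2AP1 (0.12) were not called. CDK2AP2, a relative of the CDK2-associated protein CDK2AP1, read 9.72, 9.85 and 9.90 in DMSO and 10.82, 10.76 and 10.72 in YW3-56, and was 1.92-fold higher (limma adjusted p = 2.4e-04). It was called under every other setting. With the replicate number as a block 1 of the listed genes was called lower, and without DMSO replicate 1 there were 2.

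The RB and E2F family split evenly, with 5 of 17 members higher and 5 lower, 58.8% called beside 21.4% of all genes, and a median of 0.02. E2F5, one of the E2F proteins that hold genes silent in resting cells, was 2.23-fold lower (-1.16 ± 0.08 SE, limma adjusted p = 1.2e-04), with DMSO values of 9.96, 9.98 and 9.81 against 8.70, 8.77 and 8.81. E2F8 (-0.66 ± 0.14) fell and E2F7 (0.63 ± 0.07) rose, although both encode atypical E2F repressors. LIN37 (0.57 ± 0.09), LIN54 (0.52 ± 0.09) and LIN52 (0.29 ± 0.09), subunits of a complex that represses cell cycle genes together with RB relatives, rose, while LIN9 (0.04), a further subunit, and the RB relatives RBL1 (-0.04) and RBL2 (0.11) were not called. E2F4 (-0.44 ± 0.10) and TFDP1 (-0.38 ± 0.07), an E2F and a partner in that complex, fell. TFDP2 (0.41 ± 0.09), a further E2F partner, rose. The LIN52 call was lost after centring of the arrays, with the replicate number as a block (adjusted p = 0.0524) and on removal of any 1 array other than YW3-56 replicate 2. The per-gene model ended the call of E2F8 (adjusted p = 0.0855). E2F2 fell with a call close to the threshold (-0.38 ± 0.11 SE, limma adjusted p = 0.0454). RB1 (-0.15 ± 0.07), E2F1 (0.02 ± 0.08) and E2F3 (-0.25 ± 0.09) were not called. The rises numbered 3 without DMSO replicate 2 or YW3-56 replicate 1, and the falls 3 after centring of the arrays and without DMSO replicate 2 or YW3-56 replicate 3.

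Of 20 genes listed around the ubiquitin ligases of G1 cyclins and CDK inhibitors, 2 rose and 5 fell (35% called beside 21.4% of all genes, median -0.16). The list also held KPNA2, a nuclear import factor and no ligase component, which was among the falls (-0.28 ± 0.08). SKP2, the receptor that targets p27 and p21 for degradation, read 12.07, 12.02 and 11.93 in DMSO and 11.58, 11.72 and 11.76 in YW3-56 (-0.32 ± 0.08 SE, limma adjusted p = 0.0243). This call was lost after centring of the arrays (adjusted p = 0.0858), and without DMSO replicate 2 or any 1 of the treated arrays. Its scaffold CUL1 (-0.39 ± 0.08) and the related CUL2 (-0.40 ± 0.07) fell as well. AMBRA1, the receptor that targets D-type cyclins, rose by 0.41 ± 0.08 on the log2 scale, and FBXW7, which targets cyclin E, by 0.42 ± 0.12. The FBXW7 call (limma adjusted p = 0.0473) was lost after either rescaling and on removal of any 1 array other than DMSO replicate 1, and AMBRA1 was lost without YW3-56 replicate 3. Of this list 1 member rose and 2 fell after centring of the arrays, and the falls also numbered 2 without DMSO replicate 2 and without any 1 of the treated arrays.

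Of 21 other cyclins, 1 rose and 5 fell (28.6% called beside 21.4% of all genes, median -0.07). CCNB1, the mitotic cyclin B1 (-0.71 ± 0.08 SE, limma adjusted p = 6.0e-04), CCNA1 (-0.77 ± 0.15) and CCNF (-0.56 ± 0.13) fell most, and CCNT2, a cyclin of the transcription elongation kinase CDK9, rose by 0.65 ± 0.08. The other falls were CCNA2 (-0.39 ± 0.08) and CCNJ (-0.34 ± 0.10), while CCNB2, the gene of cyclin B2 (-0.08 ± 0.12), was not called. The falls numbered 2 without DMSO replicate 2 and 3 without YW3-56 replicate 3, and 2 cyclins rose in the fit with the replicate block. CCNA1 (adjusted p = 0.0728) and CCNF (0.093) were not called in the per-gene model, and CCNF not without DMSO replicate 2. Genes of S phase entry known as E2F targets fell in 8 of 21 cases, or 38.1%, beside 11.5% of all genes, and rose in 0 (median -0.23), led by UNG (-0.87 ± 0.12), CDC7 (-0.74 ± 0.11), RRM2 (-0.58 ± 0.11) and PCNA (-0.47 ± 0.08). Changes in this list reached 0.33 ± 0.12 in CDC6, which was not called (limma adjusted p = 0.0808), although its treated arrays all lay above DMSO. There were 5 falls without YW3-56 replicate 2 or 3, 2 rises without DMSO replicate 1 and 1 rise with the replicate block. RRM2 was not called in the per-gene model (adjusted p = 0.0657).

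Known p53 targets other than CDKN1A went both ways, with 8 of 22 higher and 4 lower (54.5% called beside 21.4% of all genes, median 0.14). GDF15, a stress-induced secreted factor, read 7.67, 7.89 and 7.90 in DMSO and 10.07, 9.19 and 8.98 in YW3-56, and was 3.01-fold higher (limma adjusted p = 0.00292). TP53INP1 was 2.73-fold higher (1.45 ± 0.09). The other rises on the log2 scale were PLK3 (0.56), PPM1D (0.53), XPC (0.50), TNFRSF10B (0.37), TIGAR (0.29) and RRM2B (0.28). ZMAT3 (-1.01 ± 0.17), the nuclease gene AEN (-0.75 ± 0.09), POLH (-0.65 ± 0.10) and the pro-apoptotic BAX (-0.49 ± 0.08) fell. MDM2, the ligase that degrades p53 and is itself a p53 target, read 10.95, 10.86 and 11.04 in DMSO and 10.65, 10.72 and 10.76 in YW3-56. The treated arrays were all lower, but MDM2 was not called (-0.24 ± 0.08 SE, limma adjusted p = 0.0657) except with the replicate block (adjusted p = 0.0486), a trended prior or the 25th percentile filter. The per-gene model ended the calls of GDF15 (adjusted p = 0.0567) and ZMAT3 (0.0649) and left 5 rises in this list.

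**Figure D4:**
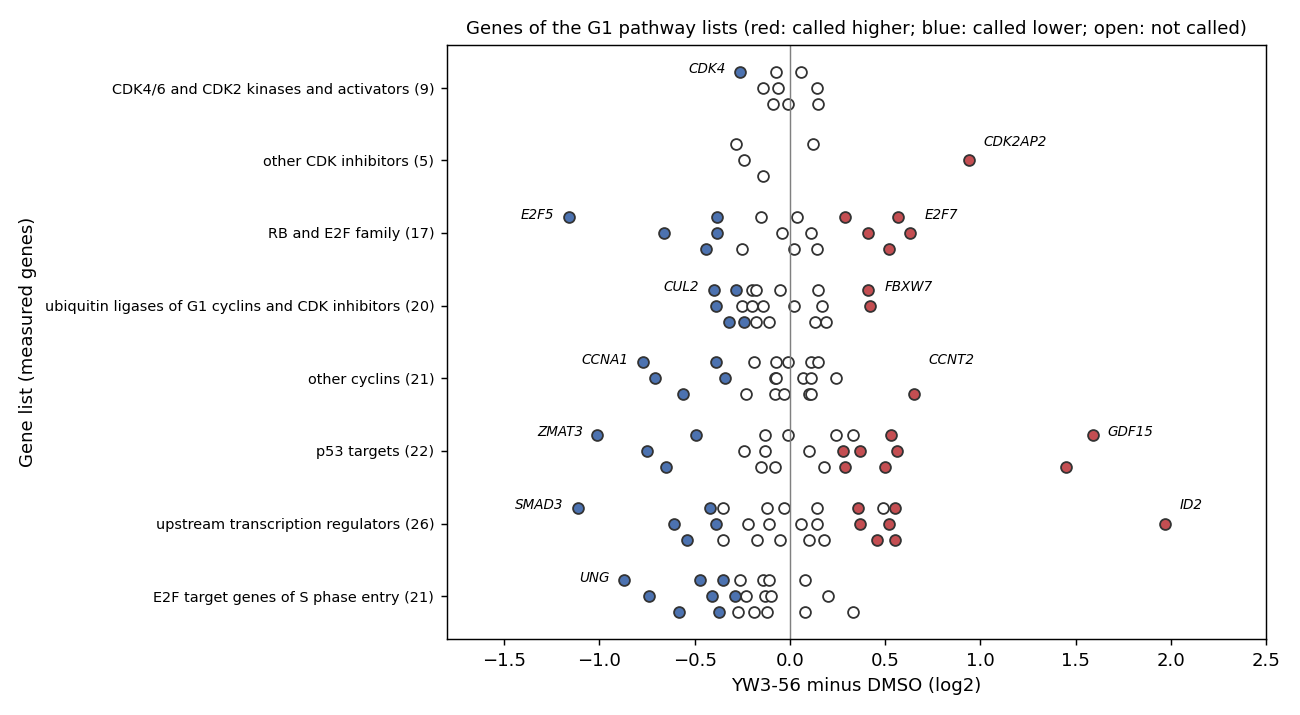
Difference between YW3-56 and DMSO (horizontal axis, log2) of single genes in 8 lists around the G1 cyclins and CDK inhibitors (vertical axis, number of measured genes in brackets), with genes called higher in red, called lower in blue and not called open; n = 3 arrays per group, and the vertical offset within a list only separates points. Genes of the kinase and activator list lie between -0.26 and 0.15, and the RB and E2F family and p53 targets spread to both sides. All 8 called genes of S phase entry lie to the left.

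Of 26 regulators known to act on G1 cyclin or CDK inhibitor genes, 7 rose and 5 fell (46.2% called beside 21.4% of all genes, median 0.02). ID2, an inhibitor of helix-loop-helix factors, read 6.91, 6.48 and 6.50 in DMSO and 8.51, 8.53 and 8.77 in YW3-56, and was 3.93-fold higher (limma adjusted p = 1.1e-04). SMAD3, a TGF-beta effector, was 2.16-fold lower (-1.11 ± 0.12), and HES1, a Notch target, changed by -0.61 ± 0.14. MYC, which represses CDKN1A and activates CCND2, rose by 0.55 ± 0.08 on the log2 scale. Among FOXO factors, FOXO4 rose (0.52 ± 0.10), while FOXO1 (0.14 ± 0.10) and FOXO3 (-0.05 ± 0.09) were not called. There were 8 falls with the replicate number as a block and 3 without YW3-56 replicate 2 or 3. HES1 was not called without either of these arrays, and neither HES1 nor FOXO4 was called in the per-gene model.

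The cultures carried the signature known for this line. VIM, CD44, AXL, CAV1 and MSN were at or above the 99.5 percentile of gene means, while the luminal and epithelial genes ESR1 (22.4), PGR (8.88) and CDH1 (14.1) were dim. Against the set they belong to, S100A4 was dim (30.2) and ERBB2 (65.5) and FOXA1 (62.4) lay above the median. The summed log2 values of the line's own 7 markers ran from 84.17 to 84.47 in DMSO and from 83.28 to 83.49 in YW3-56, with no overlap, and CAV1 (-0.43) was called lower. In the luminal and epithelial set, whose sums overlapped (51.59 to 52.73 and 51.14 to 52.26), FOXA1 (0.50) was called higher and GATA3 (-0.37) lower. The part of these differences in the results was not tested. Brightness of different probe sets is only a rough guide to transcript level. The summed log2 values of 5 fibroblast markers ran from 32.77 to 34.23 in DMSO and from 33.60 to 34.00 in YW3-56, and those of 4 endothelial and leukocyte markers from 23.85 to 25.35 and from 24.35 to 24.72. Of these, the fibroblast marker COL1A1 lay above the median (62.3 percentile) and all others below it. No marker of these last 2 sets was called. In bulk RNA, a change in every cell and a change in a fraction of the cells, such as a shift in cell cycle phase, cannot be told apart. No value given here measures protein or cell cycle phase.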

How the data were processed

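The members and gene lists were chosen with earlier results of these data known. The deposited values are log2 expression for 33297 probe sets, made by the authors with RMA and affy, per the submitters' processing notes, which give no versions. RMA equalises arrays at the level of single probes, so a shift of all transcripts would be invisible. Small offsets remained in the probe set values, with array medians from 7.55 to 7.74. Counts after centring of the arrays are given below. Arrays carry no read depth, and their number limits the precision.

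Of the probe sets, 19460 had 1 gene symbol in the platform annotation, which can be old, 1754 had several and 12083 none. The brightest stood for each of 18417 genes. limma 3.58.1 in R 4.3.3 (lmFit, eBayes) was fitted to all genes with group as the only term, two-sided, with Benjamini-Hochberg adjustment, and was tested on simulated data. Related members were compared by exact permutation over arrays. Lists have counts and medians and no set test. Named genes were the members, up to 4 called genes per list with the largest change, fixed genes such as CDK2, RB1 and MDM2, and the 3 nearest profiles of CCNG2 and CCND1. CCNG1, E2F1, E2F4, TFDP1, RBL1, RBL2, LIN9, LIN52, LIN54, POLH, BAX and the FOXO genes were added after their values were seen. The same holds for TFDP2, KPNA2, CDK5, CDC37, CDC6, PLK3, PPM1D, XPC, TNFRSF10B, TIGAR and RRM2B. It also holds for CDKN2D, CDKN3, CDK2AP1, E2F2, E2F3, CCNA2, CCNB2 and CCNJ.

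Deviations from group means correlated at 0.539, 0.37 and 0.102 between same-numbered arrays, each over 0.1, although DMSO replicate 3 and YW3-56 replicate 2 reached 0.416, so the pairing is uncertain. A fit with the replicate number as a block was among 16 planned settings. RefSeq GRCh38.p14 served for sequence and names only. The sources used here do not give a build for the array.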

Additional observations from a re-analysis of the deposited data

How the results depend on the processing

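CCND2 and CCNG2 kept their direction and call under all 17 other settings, CCND1 lost its call under 1 and CDKN1A under 5, as given above. Some settings could hardly differ for the members. Each member had 1 probe set, so averaging probe sets kept its values, and the expression filters changed only which other genes were tested. The counts of members called stayed within 2 to 3 higher and at 1 lower when single arrays were left out, and the per-gene model without shared variance called 2 higher and 0 lower. With the replicate number as a block, 3 members were called higher and 1 lower, as in the main fit, with 2115 genes higher and 2661 lower in all. Over all genes 1812 were called higher and 2121 lower. After centring of the arrays these counts were 1691 and 1432, and after a second quantile normalization 2114 and 2025. The share of calls that were higher was 46.1% in the main fit, 54.1% after centring and 51.1% after the second normalization. The balance of rises and falls over all genes thus depended on the scaling. Leaving out single arrays gave 1158 to 2084 higher and 1206 to 2605 lower, both lowest without YW3-56 replicate 3, and array weights gave 3432 lower. These weights were 0.33 for DMSO replicate 1 and 2.94 for DMSO replicate 2, estimated gene by gene because the default estimate stopped before convergence.

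Signs turned only for members that were never called. CDKN2B, at -0.00 in the main fit, was 0.03 after a second quantile normalization and after centring, and from -0.13 to 0.08 when single arrays were left out. CDKN1C ran from -0.21 to 0.03 when single arrays were left out. CCNE2 was 0.05 with array weights, from -0.19 to 0.01 when single arrays were left out, and 0.06 without replicate 1 of both groups. The cause was not tested. Differences between related members kept their sign in 14 of 14 recomputed cases. These came from a second quantile normalization and from averaging the probe sets of each gene. The averaged cases could not differ from the main values, since each member had 1 probe set. Over all settings the list counts ran from 3 to 5 higher and 2 to 6 lower for RB and E2F, 5 to 10 and 4 to 5 for p53 targets, 0 to 4 and 2 to 9 for ubiquitin ligases, and 0 to 2 and 5 to 10 for S phase entry.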
